A study of Mus musculus with 12 samples.

Results

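The genes described here are 9 genes of magnesium transport, Trpm7, Slc41a1, Slc41a2, Slc41a3, Magt1, Cnnm2, Cnnm3, Cnnm4 and Mrs2. They were chosen by name, for encoding proteins known to carry magnesium ions across membranes or to take part in that transport. No measured value served as a criterion, but earlier results of these data were known when they were chosen. All 9 are listed among the 54345 genes of the expression table. All 9 also passed the filter on low values, an FPKM above 0 in at least 3 libraries, which 25044 genes passed. FPKM is the number of sequenced fragments set relative to gene length and library size. The RNA came from H9c2 cells, a clonal line of myoblasts taken from embryonic rat heart, here labelled as wild type and collected 6 h into treatment. Untreated cells (Unt) were compared with cells given doxorubicin (DOX), an anthracycline anticancer drug that is toxic to the heart. The other groups received doxorubicin together with dexrazoxane (D_DXZ), a drug given to protect the heart, or together with magnesium hexacyanoferrate nanocatalysts (D_MgHCF), which contain magnesium. Each of the 4 groups had 3 libraries, and doses for them are not given in the sources used here. Dexrazoxane and MgHCF were not given without doxorubicin in these libraries, so what an agent did by itself and what it did to the doxorubicin response cannot be told apart. The labels do not say that the 3 libraries of a group came from separate cultures, so the p-values measure the spread between these samples, which may be technical.

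Magnesium is the most abundant divalent cation inside cells and is held by ATP, nucleic acids and many enzymes. Trpm7, a channel fused to a kinase, lets magnesium and other divalent ions into the cell. Magt1 encodes a protein described both as a magnesium transporter and as a subunit of the STT3B form of oligosaccharyltransferase, the enzyme complex of the endoplasmic reticulum that attaches sugar chains to asparagines of new proteins. Slc41a1 encodes a sodium-dependent magnesium exporter of the plasma membrane, Slc41a2 a related transporter and Slc41a3 a relative assigned to magnesium release from mitochondria. Cnnm2, Cnnm3 and Cnnm4 encode cyclin M proteins of the plasma membrane, which take part in magnesium extrusion. Mrs2 encodes the magnesium channel of the inner mitochondrial membrane. In the heart, magnesium is known for its influence on ion channels and rhythm.

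The 12 libraries held between 16626514 and 19365119 reads over genes, recovered from the FPKM values as whole reads. The labels give the organism as mouse, and the reads of this rat line were assigned by the authors to mouse genes, so a level depends on how well rat reads align to each mouse gene as well as on RNA, and this part was not tested. The third D_MgHCF library stood apart, with correlations of 0.957 and 0.974 to the other two against 0.988 between those. In the other groups every pair reached at least 0.991. The FPKM values already carry a scaling of the authors that sets the median gene about equal between libraries. With that scaling, the factor applied to each library relative to its summed reads was above 1 in Unt (1.32 to 1.38) and D_MgHCF (1.26 to 1.43) and below 1 in DOX (0.647 to 0.784) and D_DXZ (0.747 to 0.892). Directions are therefore also given below for FPKM put on an equal sum in every library (TPM) or divided by the summed reads. Of 12 myoblast markers only Vim and Gata4 had a mean FPKM of at least 1, and Myod1, Myf5 and Myog had at most 4 reads in any library, so the defining markers of skeletal myoblasts were nearly absent. The summed FPKM of 4 fibroblast markers, carried by Col1a1 and Col3a1, was higher in DOX (109 to 135) and D_DXZ (74.3 to 118) than in Unt (35.8 to 37.1), and D_MgHCF (27.7 to 57.1) lay around Unt. Pdgfra of that list went the other way, with mean FPKM of 0.718 in Unt, 0.352 in DOX and 0.433 in D_DXZ. The mean of Dcn was higher in DOX and D_DXZ, but it had at most 11 reads in any library. Marker sums are given on the deposited scaling only. Summed macrophage markers, of which Cd68 alone was well detected, were 0.888 to 1.12 in Unt and 2.00 to 4.98 over the treated libraries, and epithelial markers summed to at most 1.63 in any library, in D_MgHCF. The part of these markers in the results was not tested, and in bulk RNA fewer cells of a type and less RNA per cell cannot be told apart.

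The magnesium transport genes did not move together. Magt1 was higher in the DOX and D_DXZ libraries than in Unt, and in D_MgHCF it lay near the Unt level. Cnnm2, Cnnm3 and Cnnm4 were lower in DOX and D_DXZ than in Unt and higher in D_MgHCF than in either. Slc41a1 was about 3.15-fold and Cnnm2 6.32-fold higher in mean FPKM in D_MgHCF than in DOX, and both also exceeded Unt. Trpm7 was the only member called lower in D_MgHCF than in Unt. On the deposited scaling, Slc41a3 and Mrs2 passed the test in none of the 6 comparisons, and Slc41a2 passed it only in DOX against Unt.

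A gene was called where limma's adjusted p (Benjamini-Hochberg over all 25044 genes) was below 0.05 on log2(FPKM + 1), a scale that understates the change of low genes. In DOX against Unt, 5 of the 9 members were called, 1 higher and 4 lower. Of all genes tested 38.4% were called, 18.6% higher and 19.9% lower, and among the 11515 genes with a mean FPKM of at least 1, as the members have, 70% were called. In D_DXZ against Unt, 5 members were called, 2 higher and 3 lower, against 33.9% of all genes (15.9% higher, 18% lower) and 63.4% of the genes with a mean FPKM of at least 1. In D_MgHCF against Unt, 4 members were called, 3 higher and 1 lower, against 40.1% (24.3% higher, 15.7% lower) and 51.5%. These counts are near the share among genes of like level, and they do not set the members apart.

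In D_MgHCF against DOX, 6 members were called, 4 higher (Slc41a1, Cnnm2, Cnnm3, Cnnm4) and 2 lower (Trpm7, Magt1). The background was 51.5% of all genes (31.4% higher, 20.1% lower) and 73.7% of the genes with a mean FPKM of at least 1. The same 6 members were called in the same directions in D_MgHCF against D_DXZ, where the background was 48.4% (29.4% higher, 19% lower) and 68.5%. These comparisons share the D_MgHCF libraries. In D_DXZ against DOX, limma called 0 members and 0% of all genes. At an unadjusted p below 0.05 limma still called 0 members and 9.54% of all genes, and limma-voom on the recovered reads called 0 members. Among the members the 95% intervals of the D_DXZ minus DOX log2 difference reached from −0.81 (Cnnm2, lower bound) to 0.59 (Trpm7, upper bound), so changes of that size were not resolved.

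**Figure D1:**
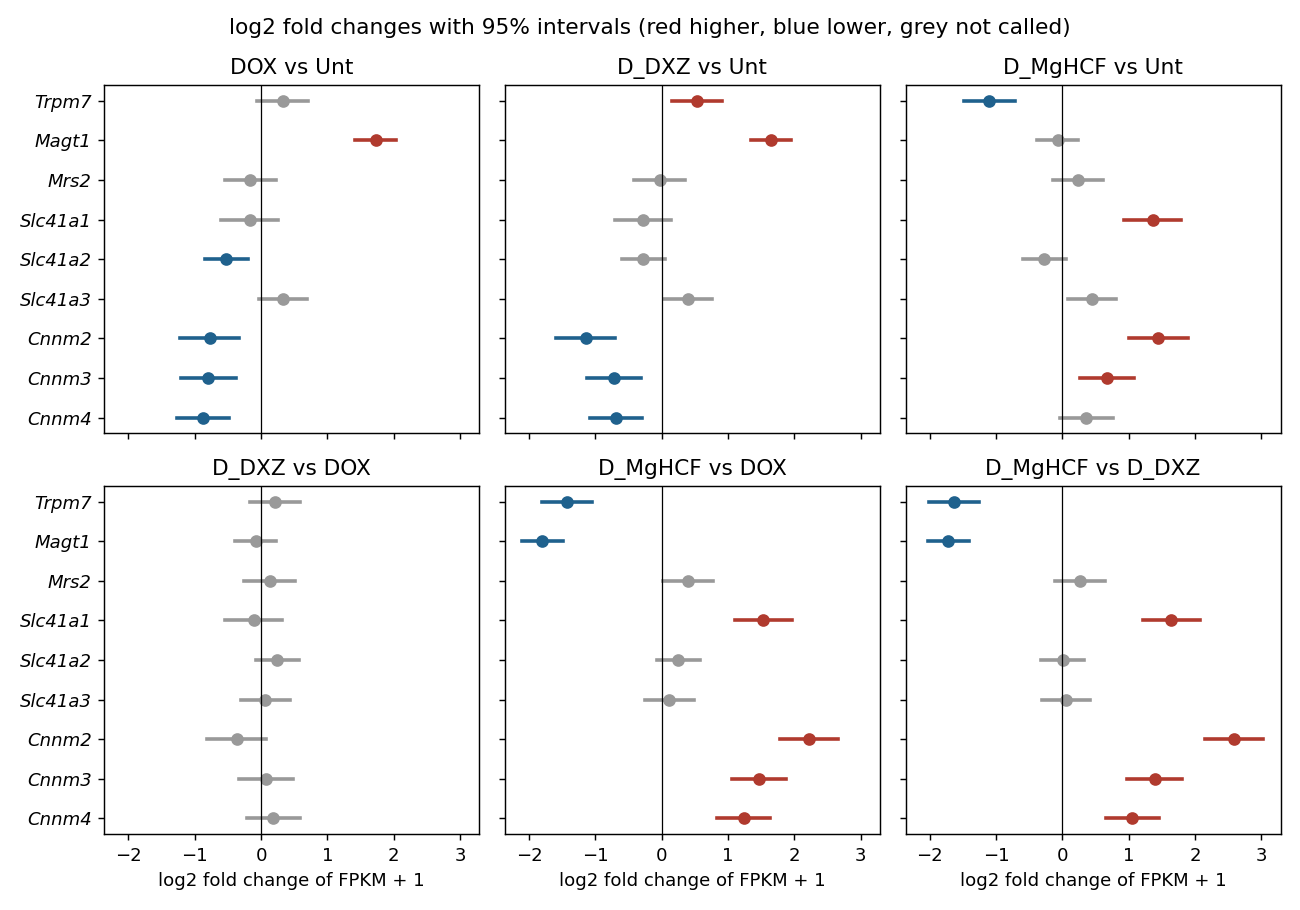
Log2 fold change on log2(FPKM + 1) with its 95% interval for the 9 members (rows) in the 6 comparisons (panels); red points were called higher, blue points lower and grey points were not called by limma. Magt1 (1.73) lies to the right of 0 and the 3 cyclin M genes to the left in DOX against Unt, the order is turned in D_MgHCF against DOX, and in D_DXZ against DOX every interval crosses 0.

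The median log2 difference of the 9 members was −0.17 in DOX against Unt, where the median of all genes tested was 0 and that of genes with a mean FPKM of at least 1 was 0.05. It was 0.36 in D_MgHCF against Unt beside 0.05 and −0.08, and 0.40 in D_MgHCF against DOX beside 0.07 and −0.09. The split by direction depended on the scaling. In DOX against Unt it was 1 higher and 8 lower as TPM, 1 and 7 over summed reads, and 2 and 0 after quantile normalization. In D_MgHCF against DOX it was 7 higher and 1 lower as TPM and 7 and 2 over summed reads, and in D_MgHCF against D_DXZ it was 7 and 2 under both. In D_DXZ against Unt it was 1 and 6 under both, and 3 and 1 after quantile normalization. Over all genes the same shift was seen as TPM and over summed reads. Genes called in DOX against Unt were 4649 higher and 4973 lower as deposited, and 1099 higher and 10034 lower as TPM. In D_MgHCF against DOX they were 7863 higher and 5027 lower as deposited, and 13331 higher and 1679 lower as TPM. For D_DXZ against Unt they were 3979 higher and 4515 lower as deposited, and 917 and 9910 as TPM. For D_MgHCF against D_DXZ they were 7358 and 4757 as deposited, and 12648 and 1538 as TPM. Over summed reads they were 2075 and 8303, 12376 and 2401, 1913 and 7946, and 11426 and 2382, in the same order. After quantile normalization they were 4170 and 4340 in DOX against Unt and 3517 and 3661 in D_DXZ against Unt.

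**Figure D2:**
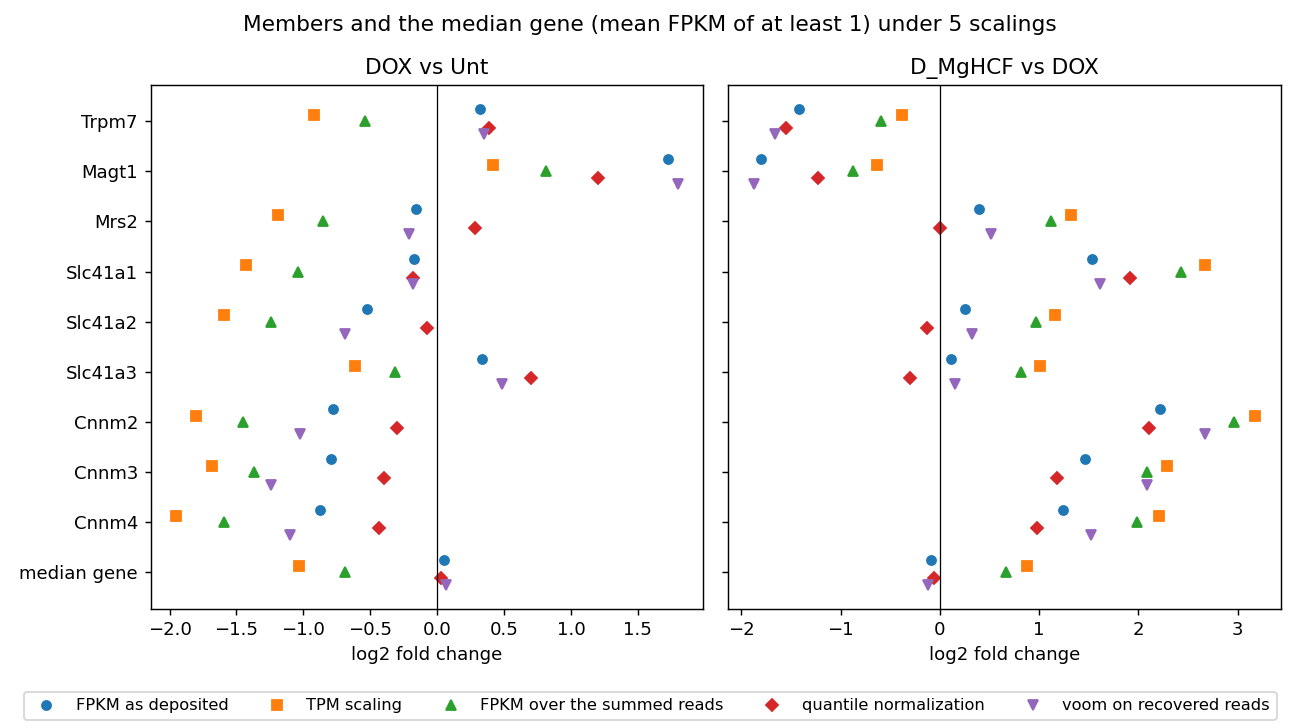
Log2 fold change of the 9 members and of the median gene with a mean FPKM of at least 1 under 5 scalings of the libraries, for DOX against Unt and for D_MgHCF against DOX. TPM and summed reads move all genes together, the median gene to −1.03 and −0.69 in DOX against Unt and to 0.87 and 0.67 in D_MgHCF against DOX, while Magt1 stays on the side opposite to the cyclin M genes.

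Levels per length put Magt1 first in Unt, with a mean of 13.5 ± 1.22 FPKM (SD, n = 3), followed by Slc41a1 at 11.6 ± 0.379 and Trpm7 at 8.71 ± 1.87. Cnnm4 came next at 5.59 ± 0.637. Below it, Cnnm2 and Slc41a2 had overlapping library values, as did Mrs2 and Cnnm3, and Slc41a3 was lowest at 1.83 ± 0.0769. In DOX Magt1 stood alone at the top, Trpm7 and Slc41a1 overlapped below it, and the other 6 genes formed a chain in which each overlapped the next. The order in D_DXZ was Magt1, Trpm7, Slc41a1 without overlap, then Slc41a2, Cnnm4, Mrs2 and Slc41a3 overlapping in turn, and last Cnnm2 and Cnnm3. In D_MgHCF Slc41a1 led at 32.3 ± 9.08, Cnnm2 and Magt1 overlapped at 13.5 ± 2.58 and 12.8 ± 1.65, and Trpm7 had moved among the low genes.

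**Figure D3:**
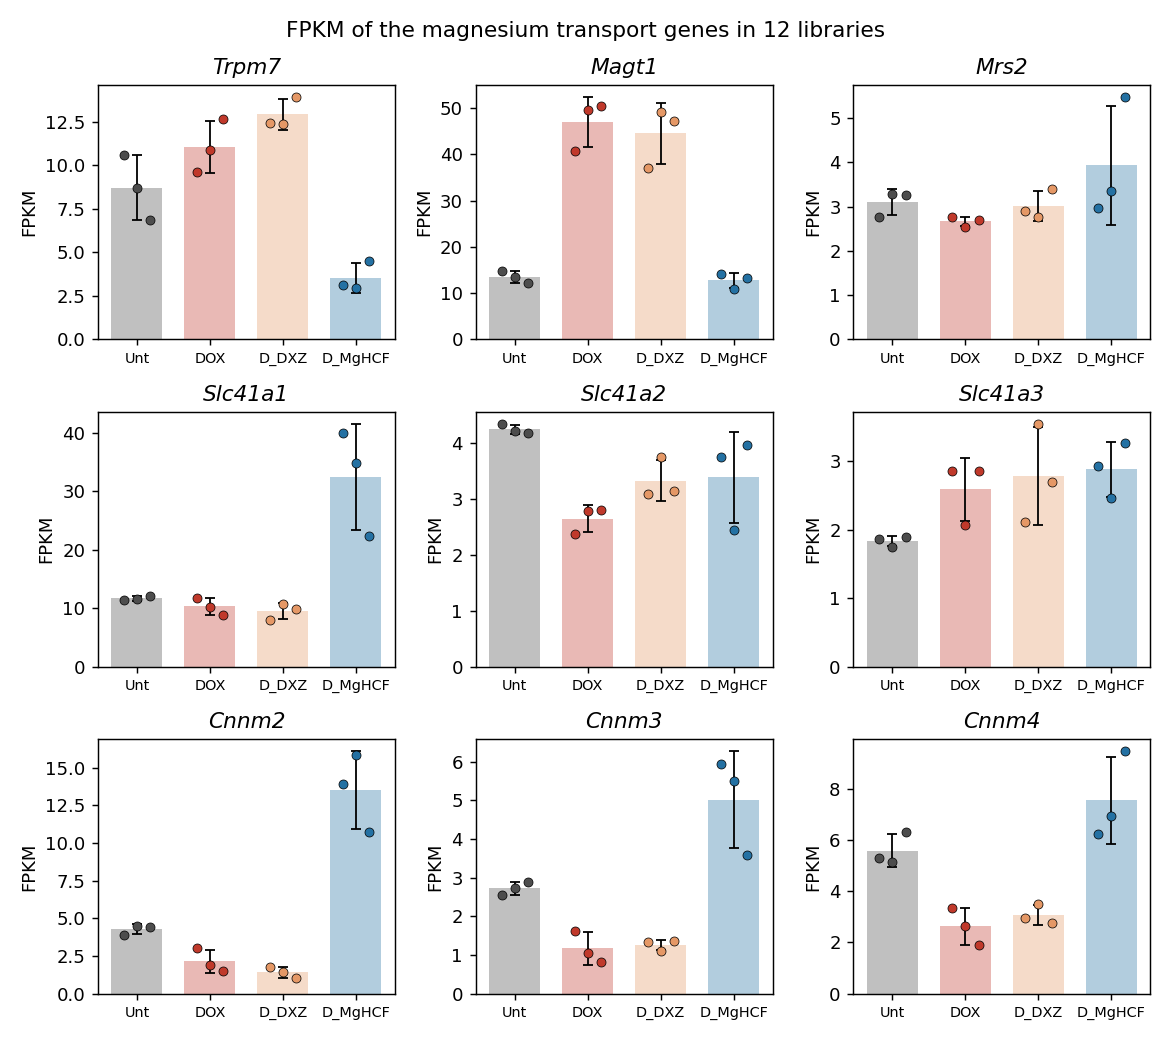
FPKM of each of the 9 genes (panels, each with its own axis from 0) in the 4 groups; bars give the mean, error bars the SD over 3 libraries and points the libraries. Magt1 is high in DOX and D_DXZ, whereas Slc41a1 and the cyclin M genes are highest in D_MgHCF.

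The summed FPKM of the 9 genes was 55.6 ± 1.60 in Unt, 82.2 ± 3.55 in DOX, 81.8 ± 8.97 in D_DXZ and 84.9 ± 8.10 in D_MgHCF (SD, n = 3). These sums depend on the scaling, since as TPM they were 248 ± 14.8 in Unt, lower at 142 ± 12.3 in DOX and 159 ± 3.59 in D_DXZ, and higher at 341 ± 19.8 in D_MgHCF. A gene's share of that sum does not change with the scaling of a library, and these shares were chosen for description after the values were seen. Magt1 made up 24.2 ± 1.51% of the sum in Unt, 57.1 ± 4.23% in DOX, 54.3 ± 2.20% in D_DXZ and 15.1 ± 2.28% in D_MgHCF. The DOX and D_DXZ sums rested mainly on Magt1, and that of D_MgHCF did not. Slc41a1 held 21.0 ± 1.27% in Unt, 12.6 ± 2.32% in DOX, 11.5 ± 0.519% in D_DXZ and 37.6 ± 7.50% in D_MgHCF. Cnnm2 held 7.72 ± 0.808% in Unt, 2.63 ± 1.08% in DOX and 15.9 ± 2.41% in D_MgHCF. Trpm7 held 15.6 ± 2.91%, 13.4 ± 1.36% and 15.9 ± 1.71% in Unt, DOX and D_DXZ and 4.24 ± 1.46% in D_MgHCF. The share of Slc41a3 was nearly the same in all groups, at 3.30%, 3.16%, 3.37% and 3.43%. The ratio of Slc41a1 to Magt1 FPKM was 0.871 ± 0.107 in Unt, 0.223 ± 0.0586 in DOX, 0.212 ± 0.00510 in D_DXZ and 2.56 ± 0.791 in D_MgHCF. In the third D_MgHCF library that ratio was 1.67 against 2.83 and 3.19 in the others, still above every library of the other groups.

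**Figure D4:**
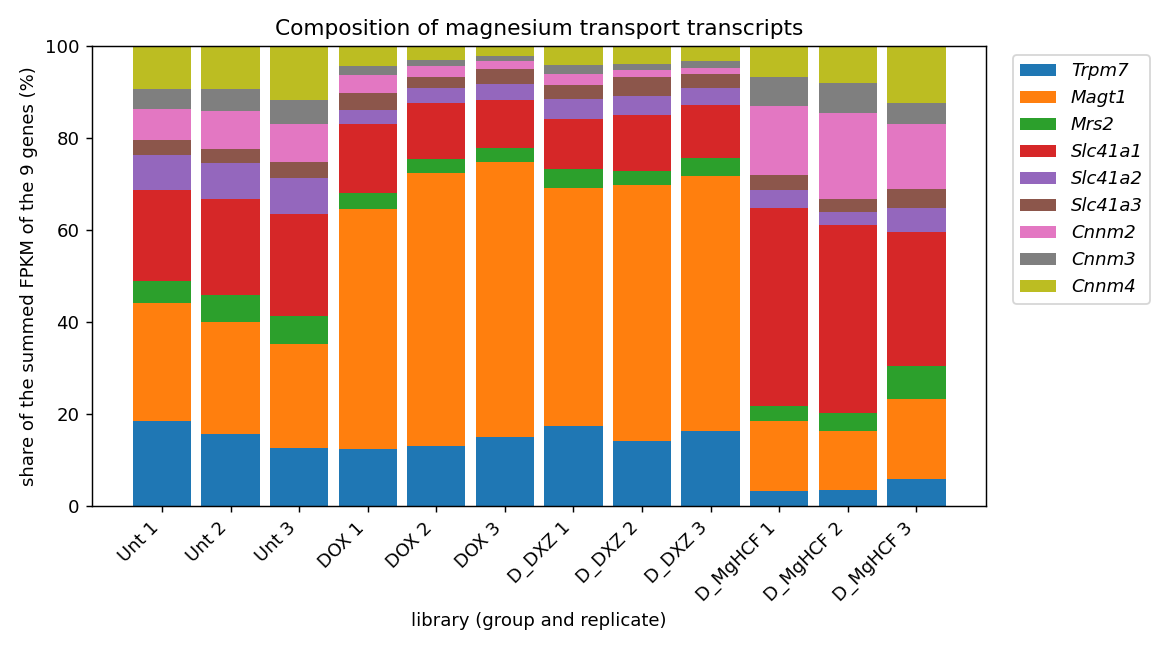
Share of the summed FPKM of the 9 genes taken by each gene (stacked, in percent) in each of the 12 libraries. The Magt1 segment covers more than any other in DOX and D_DXZ, and the Slc41a1 and Cnnm2 segments widen in D_MgHCF.

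The mouse bases upstream of RefSeq starts (GRCm38.p6) were read for 8 of the 9 genes. They are shown for the 2 members that were lower and the 2 with the highest log2 difference in D_MgHCF against DOX, since these genes moved in opposite directions. Each sequence is written 5′ to 3′ in the gene's direction, as the longest run of the 250 upstream bases that holds no annotated exon. Capitals mark the letters CCAAT, the GC box GGGCGG and the E-box CACGTG, searched on both strands. The Magt1 run is chrX:106011907-106012052 (minus strand), the Trpm7 run chr2:126876262-126876511 (minus strand), the Cnnm2 run chr19:46761359-46761595 (plus strand) and the Slc41a1 run chr1:131827762-131827976 (plus strand). The Slc41a1 run lies inside the gene span of the expression table and the others just outside it.
Magt1: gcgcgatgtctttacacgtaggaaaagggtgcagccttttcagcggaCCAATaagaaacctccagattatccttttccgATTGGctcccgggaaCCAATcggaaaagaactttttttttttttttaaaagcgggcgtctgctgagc
Trpm7: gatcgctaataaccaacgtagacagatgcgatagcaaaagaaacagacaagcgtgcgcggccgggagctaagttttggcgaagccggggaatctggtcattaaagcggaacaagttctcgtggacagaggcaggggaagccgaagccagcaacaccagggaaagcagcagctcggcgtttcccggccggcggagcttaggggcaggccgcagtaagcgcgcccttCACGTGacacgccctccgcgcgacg
Cnnm2: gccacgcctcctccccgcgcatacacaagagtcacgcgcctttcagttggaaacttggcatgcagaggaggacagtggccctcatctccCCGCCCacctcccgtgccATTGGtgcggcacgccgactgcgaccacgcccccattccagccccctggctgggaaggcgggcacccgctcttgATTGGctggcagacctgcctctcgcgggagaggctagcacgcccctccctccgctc
Slc41a1: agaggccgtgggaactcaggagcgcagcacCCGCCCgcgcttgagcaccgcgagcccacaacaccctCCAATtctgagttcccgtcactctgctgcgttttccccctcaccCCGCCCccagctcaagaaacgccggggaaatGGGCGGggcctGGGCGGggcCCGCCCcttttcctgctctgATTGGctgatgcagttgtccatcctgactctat
Within their 250 upstream bases, 4 of the 8 genes held CCAAT (Magt1, Slc41a1, Cnnm2, Cnnm3), beside 33.8% of 32851 promoters. GGGCGG was found in 4 of them (Slc41a1, Cnnm2, Cnnm3, Cnnm4), beside 32.7% of promoters. These windows had the highest GC content, at 64.8 to 75.6% against 56.4 to 61.2% in the other searched genes. CACGTG was found in 3 (Magt1, Trpm7, Slc41a3), beside 6.02%. The Magt1 match lies in annotated exon bases, outside the run shown, and the Slc41a3 window lies inside the gene span. TATAAA, found in 12.4% of promoters, and CCGGAAG, in 6.91%, were in none of the 8, and TGACGTCA, in 1.55%, was in Cnnm4 alone. The GC content was 56.4 to 75.6% with a median of 52.4% over all promoters. A match describes these letters only and shows no binding. H9c2 is a rat line, and the rat sequences upstream of these genes were not read, so the matches may differ in these cells.

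Trpm7 (ENSMUSG00000027365, GRCm38 chr2:126791565-126876230, minus strand), the channel and kinase through which magnesium enters the cell, was low in D_MgHCF. Its FPKM was 10.6, 8.71 and 6.85 in the Unt libraries, 9.63, 10.9 and 12.7 in DOX, 12.4, 12.4 and 13.9 in D_DXZ, and 3.10, 2.94 and 4.53 in D_MgHCF. All 3 D_MgHCF libraries lay below every other library, and the values of Unt and DOX overlapped. Against Unt the mean was 2.47-fold lower in D_MgHCF, a log2 difference of −1.10 ± 0.17 (SE; limma adjusted p = 0.000795). Against DOX it was −1.42 ± 0.17 (limma adjusted p = 7.15e-05), which was no longer called as TPM (−0.38, adjusted p = 0.151). DOX did not pass the test against Unt (0.32, 95% interval −0.06 to 0.70, limma adjusted p = 0.183), and it was called lower as TPM (−0.92, adjusted p = 0.00480) and over summed reads (−0.54, adjusted p = 0.0369). D_DXZ against Unt was called higher (0.54 ± 0.17, limma adjusted p = 0.0325), but the direction flips as TPM (−0.56) and over summed reads (−0.16), and the call was lost when any of 5 single libraries was left out (adjusted p up to 0.130).

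Magt1 (ENSMUSG00000031232, GRCm38 chrX:105968084-106011906, minus strand), the transporter and oligosaccharyltransferase subunit, had the largest fold of the members in DOX against Unt on the deposited scaling. Its FPKM was 14.7, 13.4 and 12.3 in Unt, 40.8, 49.6 and 50.5 in DOX, 37.0, 49.2 and 47.3 in D_DXZ, and 14.1, 10.9 and 13.3 in D_MgHCF. The DOX and D_DXZ libraries all lay above those of Unt and D_MgHCF, and within each of these pairs the values overlapped. The mean rose 3.49-fold from Unt to DOX (log2 difference 1.73 ± 0.14, 95% interval 1.42 to 2.04, limma adjusted p = 1.23e-05) and was 3.67-fold lower in D_MgHCF than in DOX (−1.80 ± 0.14, adjusted p = 6.62e-06). D_DXZ was likewise above Unt (1.65 ± 0.14, limma adjusted p = 5.59e-05). D_MgHCF against Unt was not called (−0.07, 95% interval −0.38 to 0.23, limma adjusted p = 0.715), nor was D_DXZ against DOX (−0.08, interval −0.39 to 0.23). The DOX rise was smaller as TPM (0.42, limma adjusted p = 0.0104), over summed reads (0.82) and after quantile normalization (1.20). As TPM, Cnnm4 (−1.95) differed more from Unt than Magt1 did. The D_MgHCF difference to DOX was −0.63 as TPM, −0.87 over summed reads and −1.23 after quantile normalization. Relative to the median gene with a mean FPKM of at least 1, the DOX rise was 1.68 as deposited, 1.45 as TPM, 1.50 over summed reads and 1.18 after quantile normalization. One stretch of 164 bases of Magt1 shared 95.1% of its bases with Snrnp200, so reads there could be assigned to either gene.

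Because Magt1 belongs to oligosaccharyltransferase, its paralog and 10 other subunits of that complex were read beside it. Tusc3, the Magt1 paralog that takes the same place in the complex, had mean FPKM of 13.9 in Unt, 55.6 in DOX, 47.8 in D_DXZ and 15.3 in D_MgHCF. It rose in DOX against Unt (1.92 ± 0.28, limma adjusted p = 0.000257), also under every other scaling, and was lower in D_MgHCF than in DOX (−1.90, adjusted p = 0.000253). Of the 10 subunits, 9 were called higher and 0 lower in DOX against Unt, with a median log2 difference of 1.50. Beside them, 18.6% of all genes were higher and 19.9% lower. Among the genes with a mean FPKM of at least 1, as all 10 subunits have, 70% were called. In D_MgHCF against DOX, 0 were higher and 10 lower, with a median of −1.48, and without the third D_MgHCF library also 10 were lower. Here 31.4% of all genes were higher and 20.1% lower, and 73.7% of those with a mean FPKM of at least 1 were called. Without that library 59.2% of all genes were called. Ddost, a subunit of both forms of the complex, had means of 117 FPKM in Unt, 482 in DOX, 413 in D_DXZ and 177 in D_MgHCF. Rpn2 and Rpn1, the ribophorins, were higher in DOX than in Unt by 1.84 (limma adjusted p = 3.96e-05) and 1.37 (adjusted p = 2.44e-05). Krtcap2, which belongs to the STT3A form, was the subunit not called in DOX (0.14, limma adjusted p = 0.483), a difference that turns to −1.20 as TPM, −1.11 after quantile normalization and −0.79 over summed reads. Krtcap2 was lower in D_MgHCF than in DOX (−1.02, limma adjusted p = 0.000104), but was 0.17 as TPM. The catalytic subunits, named after their values were seen, were higher in DOX than in Unt by 1.41 (Stt3a) and 0.88 (Stt3b, the one Magt1 works with), but Stt3b turns to −0.46 as TPM, where it was called lower (limma adjusted p = 0.000131), −0.19 after quantile normalization and −0.06 over summed reads, and Stt3a was 0.07 and not called as TPM. Against Unt, D_MgHCF had 2 subunits higher (Dad1, Ost4), 2 lower (Krtcap2, Stt3a) and 6 not called, beside 40.1% of all genes called. Counts in DOX against Unt were 4 higher and 2 lower as TPM, 6 and 1 after quantile normalization and 8 and 1 over summed reads. The shares of all genes called were 44.5%, 34% and 41.4% in the same order. The list's median less that of genes with a mean FPKM of at least 1 was 1.46 as deposited, 1.21 as TPM, 1.27 over summed reads and 0.32 after quantile normalization. In D_MgHCF against DOX the counts were 1 higher and 5 lower as TPM, 1 and 4 after quantile normalization and 1 and 8 over summed reads. There the shares of all genes called were 59.9%, 38.1% and 59%.

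**Figure D5:**
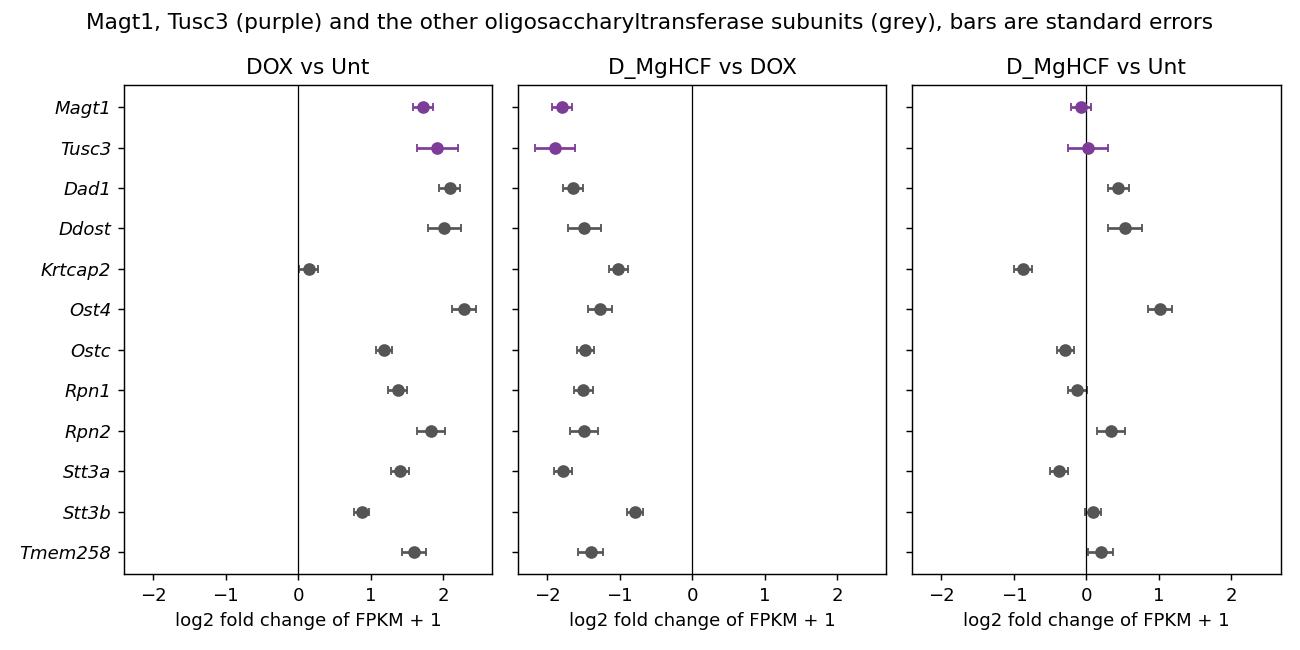
Log2 fold change with its SE for Magt1 and Tusc3 (purple) and 10 other subunits of oligosaccharyltransferase (grey) in DOX against Unt, D_MgHCF against DOX and D_MgHCF against Unt, on the scale as deposited. In the first comparison all but Krtcap2 (0.14) lie at or above Stt3b (0.88), in the second all lie below 0, and in the third Magt1 (−0.07) and Tusc3 (0.03) lie near 0.

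Slc41a1 (ENSMUSG00000013275, GRCm38 chr1:131827493-131848865, plus strand), the sodium-dependent exporter, was high in D_MgHCF alone. Its FPKM was 11.3, 11.6 and 12.0 in Unt, 11.8, 10.2 and 8.87 in DOX, 7.91, 10.7 and 9.79 in D_DXZ, and 39.9, 34.8 and 22.3 in D_MgHCF. Every D_MgHCF library exceeded every other library, the third being the lowest of them. The mean was 2.78-fold that of Unt (1.36 ± 0.19, limma adjusted p = 0.000466) and 3.15-fold that of DOX (1.53 ± 0.19, adjusted p = 9.61e-05). DOX was not called against Unt (−0.17 ± 0.19, limma adjusted p = 0.602), with overlapping values, but was called lower as TPM (−1.43) and over summed reads (−1.04), where the median gene was lower too.

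Slc41a2 (ENSMUSG00000034591, GRCm38 chr10:83230848-83337882, minus strand) was lower in DOX. Its FPKM was 4.34, 4.22 and 4.18 in Unt, 2.36, 2.78 and 2.80 in DOX, 3.09, 3.75 and 3.15 in D_DXZ, and 3.75, 2.45 and 3.97 in D_MgHCF. The DOX libraries lay below those of Unt and of D_DXZ, and the D_MgHCF values spread over both treated ranges. DOX against Unt was called (−0.53 ± 0.14, limma adjusted p = 0.0141), though not after quantile normalization (−0.08), whereas D_DXZ (−0.28, adjusted p = 0.186) and D_MgHCF (−0.28, adjusted p = 0.156) were not called against Unt. D_DXZ minus DOX was 0.25 (95% interval −0.08 to 0.57, limma adjusted p = 0.639), so a difference between these groups was not shown.

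Slc41a3 (ENSMUSG00000030089, GRCm38 chr6:90604725-90646412, plus strand), assigned to magnesium release from mitochondria, was the lowest member in Unt and rested on 77 to 233 reads. Its FPKM was 1.86, 1.75 and 1.90 in Unt, 2.85, 2.06 and 2.85 in DOX, 2.11, 3.54 and 2.70 in D_DXZ, and 2.93, 2.46 and 3.26 in D_MgHCF. All 9 treated libraries lay above the 3 Unt libraries. None of the differences to Unt passed the test, at 0.33 in DOX (limma adjusted p = 0.151), 0.40 in D_DXZ (adjusted p = 0.0909) and 0.45 in D_MgHCF (adjusted p = 0.0508). The first 2 of these turn negative as TPM (−0.61 and −0.44), and limma-voom on the recovered reads called the D_MgHCF difference (0.64, adjusted p = 0.0368).

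Of the 3 cyclin M members, each was called lower in DOX against Unt and called higher in D_MgHCF against DOX, and Cnnm2 and Cnnm3 were also called higher in D_MgHCF than in Unt. Beside them, 19.9% of all genes were lower, 31.4% higher and 24.3% higher in these comparisons, in the same order. Among genes with a mean FPKM of at least 1, 70%, 73.7% and 51.5% were called in either direction. Cnnm2 (ENSMUSG00000064105, GRCm38 chr19:46761596-46878795, plus strand), which is linked to inherited low blood magnesium, had FPKM of 3.89, 4.52 and 4.44 in Unt, 2.999, 1.91 and 1.51 in DOX, 1.79, 1.42 and 1.01 in D_DXZ, and 13.9, 15.9 and 10.7 in D_MgHCF. The D_MgHCF libraries lay above all others and Unt lay above DOX and D_DXZ. DOX was 2.00-fold lower than Unt (−0.78 ± 0.20, limma adjusted p = 0.00959) and D_DXZ 3.04-fold lower (−1.15 ± 0.20, adjusted p = 0.00123). D_MgHCF was 3.15-fold higher than Unt (1.44 ± 0.20, limma adjusted p = 0.000409), 6.32-fold higher than DOX (2.22 ± 0.20, adjusted p = 1.40e-05) and 9.60-fold higher than D_DXZ (2.59, adjusted p = 1.00e-05). The lower D_DXZ level was not separated from DOX (−0.37, 95% interval −0.81 to 0.08), and with 48 reads in the library that had the fewest, the low values are imprecise.

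Cnnm3 (ENSMUSG00000001138, GRCm38 chr1:36511867-36528237, plus strand), the least abundant of the 3 cyclin M members, had FPKM of 2.55, 2.73 and 2.88 in Unt, 1.63, 1.06 and 0.821 in DOX, 1.33, 1.11 and 1.35 in D_DXZ, and 5.95, 5.50 and 3.59 in D_MgHCF. Again the D_MgHCF libraries were highest and the DOX and D_DXZ libraries lowest, with no overlap with Unt. DOX was 2.33-fold below Unt (−0.79 ± 0.19, limma adjusted p = 0.00549), and D_MgHCF was 4.29-fold above DOX (1.47 ± 0.19, adjusted p = 9.90e-05). The rise over Unt in D_MgHCF (0.67 ± 0.19, limma adjusted p = 0.0165) was lost when D_MgHCF library 1 (adjusted p = 0.0552), D_MgHCF library 2 (0.0589) or Unt library 1 (0.0567) was left out.

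Cnnm4 (ENSMUSG00000037408, GRCm38 chr1:36471620-36508764, plus strand), an exporter best known from the intestine, lies 3102 bases before Cnnm3 on the same strand. Its FPKM was 5.31, 5.13 and 6.31 in Unt, 3.34, 2.65 and 1.90 in DOX, 2.98, 3.51 and 2.76 in D_DXZ, and 6.23, 6.95 and 9.47 in D_MgHCF. The Unt and D_MgHCF values overlapped, and both lay above DOX and D_DXZ. DOX was 2.12-fold lower than Unt (−0.87 ± 0.18, limma adjusted p = 0.00248) and D_MgHCF 2.87-fold higher than DOX (1.24 ± 0.18, adjusted p = 0.000236), while D_MgHCF against Unt was not called (0.36, adjusted p = 0.132). D_DXZ was called lower than Unt (−0.69, limma adjusted p = 0.0118). That call was lost without the third Unt library (−0.61, adjusted p = 0.0505) and after quantile normalization (−0.34, adjusted p = 0.181). After quantile normalization all 3 cyclin M genes kept their sign in DOX against Unt but none was called (−0.30, −0.40 and −0.43). In D_DXZ against Unt, Cnnm2 was still called after that normalization (−0.78, limma adjusted p = 0.0167), and Cnnm3 was not (−0.39, adjusted p = 0.161).

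Cyclin M proteins are bound by the phosphatases of regenerating liver, encoded by Ptp4a1, Ptp4a2 and Ptp4a3, and by the small GTPase of Arl15. Of these 4 partner genes, 1 was called higher (Ptp4a1, 0.67), 2 lower (Ptp4a2 and Arl15) and 1 not at all (Ptp4a3) in DOX against Unt. Beside them, 18.6% of all genes were called higher and 19.9% lower. Arl15 had a mean of 7.43 ± 0.203 FPKM in Unt, 0.853 ± 0.261 in DOX, 1.79 ± 1.08 in D_DXZ and 4.85 ± 0.467 in D_MgHCF (SD, n = 3). It fell in DOX (−2.20 ± 0.23, limma adjusted p = 3.70e-05) and in D_DXZ (−1.66, adjusted p = 0.000330), and in D_MgHCF it was above DOX (1.66, adjusted p = 0.000176) and not called against Unt (−0.53, adjusted p = 0.0903). Ptp4a2, the most abundant partner, had means of 52.9, 40.4, 44.3 and 43.9 FPKM in Unt, DOX, D_DXZ and D_MgHCF and fell in DOX (−0.38, limma adjusted p = 0.0198). The rise of Ptp4a1 in DOX flips as TPM (−0.53) and over summed reads (−0.16).

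Mrs2 (ENSMUSG00000021339, GRCm38 chr13:24987483-25020379, minus strand), the mitochondrial magnesium channel, was called in no comparison on the deposited scaling. Its FPKM was 2.77, 3.27 and 3.26 in Unt, 2.76, 2.55 and 2.69 in DOX, 2.89, 2.75 and 3.40 in D_DXZ, and 2.97, 3.36 and 5.47 in D_MgHCF. The D_MgHCF libraries lay above all DOX libraries, with the third far above the others. D_MgHCF minus DOX was 0.40 (limma adjusted p = 0.0761), DOX minus Unt −0.16 (adjusted p = 0.577) and D_DXZ minus Unt −0.03 (adjusted p = 0.969). As TPM, where the median gene moved too, Mrs2 was called in DOX against Unt (−1.19, limma adjusted p = 0.00175), D_DXZ against Unt (−0.96, adjusted p = 0.00710), D_MgHCF against DOX (1.33, adjusted p = 0.000820) and D_MgHCF against D_DXZ (1.09, adjusted p = 0.00299). Mrs2 overlaps Gpld1 on the opposite strand, which had at most 9 reads in any library. They share a stretch of 2467 bases at 100%, and how reads there were assigned was not tested.

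Of 14 further genes of magnesium transport, 13 were tested. In DOX against Unt, 3 were called higher (Tusc3, Mmgt1 at 0.76 and Tmem94 at 0.53), 2 lower (Mmgt2 at −0.92 and Nipal3 at −0.76) and 8 were not called, a share near the 38.4% of all genes. As TPM, Mmgt1 (−0.52, limma adjusted p = 0.0209) and Tmem94 (−0.73, adjusted p = 0.0242) were called in the opposite direction, and over summed reads both were negative (−0.13 and −0.34). Mmgt1 and Mmgt2 encode membrane magnesium transporters of internal compartments, and Tmem94 is reported to carry magnesium into the endoplasmic reticulum. In D_MgHCF against DOX, 5 were higher (Nipal1 at 0.96, Nipa2 at 0.48, Mmgt2 at 0.35, Trpm6 at 0.34, Nipal3 at 0.28) and 5 lower (Tusc3, Nipa1 at −0.91, Tmem94 at −0.61, Mmgt1 at −0.48, Zdhhc17 at −0.40), against 51.5% of all genes called. Here Mmgt1 (0.67), Tmem94 (0.51) and Zdhhc17 (0.43) turn positive as TPM, and Mmgt2 turns to −0.05 after quantile normalization. Nipa1, Nipa2 and their relatives encode magnesium transporters of the plasma membrane and endosomes. As TPM the counts were 1 higher and 9 lower in DOX against Unt and 8 higher and 1 lower in D_MgHCF against DOX. The shares of all genes called as TPM were 44.5% and 59.9%. Trpm6, the channel and kinase paralog of Trpm7 known from kidney and intestine, had 9 to 96 reads a library and means of 0.242, 0.169, 0.168 and 0.489 FPKM in Unt, DOX, D_DXZ and D_MgHCF, so it moved against Trpm7 but at a far lower level per length.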

How the data were processed

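Poly(A) RNA of 12 libraries was sequenced as 150 bp paired ends. The authors deposited FPKM values for 54345 mouse Ensembl genes, with gene lengths and GRCm38 coordinates. The submitters' processing notes name HISAT2 2.0.5, and the counting program and annotation release are not given in the sources used here. Multiplying FPKM by length showed that 100% of values were whole reads (tolerance 0.01), which gave the reads and depths. Groups were taken from the sample labels. limma 3.58.1 (R 4.3.3, mean-dependent prior) was fitted to log2(FPKM + 1) over the 25044 genes above 0 in at least 3 libraries, with the 4 groups in 1 fit, and the code was tested on simulated data. Adjusted p-values (Benjamini-Hochberg) below 0.05 were called in 6 comparisons. Confidence intervals are 95% intervals of the fit. The study used a negative binomial test. Here the deposited unit, FPKM, set the main test, and the recovered reads were tested with voom as an alternative.

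The members and lists were chosen with earlier results of these data known, so counts over them are descriptions. Every member was named in the results, and in each list up to 4 genes with the highest mean FPKM, other names being chosen after their values were seen. Alternatives were a pseudocount of 0.1, a stricter or no filter, unadjusted p-values, the replicate block, fits of 2 groups, TPM, quantile normalization, summed reads, voom on the recovered reads, and leaving out each library. Replicate numbers did not pair the libraries, and no 2 libraries agreed within sampling noise. Shared sequence was searched with BLAST 2.17.0 (at least 95% over at least 150 bases) and found for 3 members, Cnnm3, Magt1 and Mrs2. For Cnnm3 it was 203 bases at 99.5% with Gm38033, which had no reads. Promoters are mouse sequences from RefSeq (GRCm38.p6).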

Additional observations from a re-analysis of the deposited data

How the results depend on the processing

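The number of members called in DOX against Unt was 5 as deposited, 9 as TPM, 8 over summed reads and 2 after quantile normalization, beside 38.4%, 44.5%, 41.4% and 34% of all genes. In D_DXZ against Unt it was 5, and 3 without the third Unt library (1 higher, 2 lower), beside 33.9% and 29.7%. Leaving out single libraries gave 5 to 5 in DOX against Unt, 3 to 5 in D_DXZ against Unt, 3 to 5 in D_MgHCF against Unt, 0 to 0 in D_DXZ against DOX, 6 to 7 in D_MgHCF against DOX and 6 to 6 in D_MgHCF against D_DXZ. In the same order, the share of all genes called was 33.8 to 43.8%, 28.3 to 40.1%, 28.9 to 52.1%, 0 to 0.024%, 42.5 to 59.2% and 40.2 to 56.5%. Without the third D_MgHCF library the 6 counts were 5, 5, 4, 0, 6 and 6, beside 43.8%, 40.1%, 52.1%, 0.012%, 59.2% and 56.5% of all genes. The replicate block gave 5, 4, 4, 0, 6 and 6, with the call of Trpm7 D_DXZ vs Unt lost (adjusted p = 0.0540). Under that block the shares of all genes called were 37.6%, 33%, 38.1%, 0%, 50.4% and 47%, in the same order. The replicate numbers did not pair the libraries, with same-number correlations of −0.31 to 0.31. Of 1134 single-gene values under alternatives, 1040 kept direction and call, 19 lost the call, 37 gained it and 38 turned sign, 2 of them from a called value (Trpm7 in D_DXZ against Unt as TPM and over summed reads). The cause was not tested.

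These log2 differences turned sign. As TPM: Trpm7 −0.92 and Slc41a3 −0.61 in DOX against Unt, −0.56 and −0.44 in D_DXZ against Unt, Slc41a1 0.045 and Magt1 0.092 in D_DXZ against DOX. Over summed reads, in the same order: −0.54, −0.31, −0.16, −0.13, 0.056 and 0.10. After quantile normalization: Mrs2 0.28 in DOX against Unt, Slc41a2 0.10 and Mrs2 0.33 in D_DXZ against Unt, Slc41a3 −0.015 and Magt1 0.099 in D_DXZ against DOX, Slc41a2 −0.13, Slc41a3 −0.30 and Mrs2 −0.00011 in D_MgHCF against DOX, and −0.31, −0.28 and −0.050 in D_MgHCF against D_DXZ. Slc41a2 in D_MgHCF against D_DXZ was −1.4e-05 with a pseudocount of 0.1 and −0.0040 with voom. Leaving out libraries gave Mrs2 −0.10 to 0.016 in D_DXZ against Unt, Magt1 −0.14 to 0.029 in D_MgHCF against Unt, Slc41a1 −0.20 to 0.0013, Magt1 −0.18 to 0.044, Slc41a3 −0.073 to 0.20 and Cnnm3 −0.041 to 0.22 in D_DXZ against DOX, and Slc41a2 −0.094 to 0.17 and Slc41a3 −0.084 to 0.19 in D_MgHCF against D_DXZ. Depth limits Slc41a3, Cnnm2 and Cnnm3 most, with fewer than 100 reads in at least 1 library.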

Other observations

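Slc25a23, Slc25a24, Slc25a25 and Slc25a41 encode carriers that exchange ATP-magnesium for phosphate across the inner mitochondrial membrane. In D_MgHCF against Unt 3 of these 4 were called higher and 1 lower, and in D_MgHCF against DOX 1 was higher and 2 lower. Beside them, 24.3% of all genes were higher and 15.7% lower against Unt, and 31.4% and 20.1% against DOX. Among genes with a mean FPKM of at least 1, 51.5% and 73.7% were called in either direction. Slc25a24 had mean FPKM of 22.0 in Unt, 44.4 in DOX, 37.8 in D_DXZ and 5.14 in D_MgHCF. It was lower in D_MgHCF than in DOX (−3.00, limma adjusted p = 2.03e-05) and than in Unt (−2.04, limma adjusted p = 0.000474), also under every other scaling, while its rise in DOX (0.96, limma adjusted p = 0.0220) turns to −0.36 as TPM. Slc25a25 had means of 2.69, 1.58, 1.65 and 6.54 FPKM in Unt, DOX, D_DXZ and D_MgHCF and was higher in D_MgHCF than in DOX (1.54, limma adjusted p = 0.000127). Slc25a23 rose from 5.04 FPKM in Unt to 13.3 in DOX (1.23, limma adjusted p = 8.71e-05), a difference of 0.02 as TPM.

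Of 9 genes of magnesium handling in the kidney, such as the claudins of tight junctions, 7 were tested and none reached a mean of 1 FPKM. Their summed FPKM was 0.0860 to 0.595 over the 12 libraries.

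Likeness over the 12 libraries was measured by Pearson r of log2(FPKM + 1). Among 11514 genes with a mean FPKM of at least 1, the gene most like Magt1 was Sppl2a, with an r of 0.996. For Trpm7 it was Eif5 (0.988), for Slc41a1 Fam192a (0.996), for Cnnm2 Zswim4 (0.998), for Cnnm3 4931414P19Rik (0.994) and for Cnnm4 Ubn1 (0.992). Slc41a2 (Mroh2a, 0.920), Slc41a3 (Gm12473, 0.888) and Mrs2 (Gpd1l, 0.944) had less close neighbours. The libraries fall into groups, so these values describe group levels and carry no test.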
